A study of Homo sapiens with 9 samples.

Results

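The 10 genes described here encode the regulated core of the pyruvate dehydrogenase complex, the mitochondrial enzyme that turns pyruvate into acetyl-CoA, and the enzymes that switch it off and on. They were chosen by name from the 24542 genes and loci of the deposited count table, with earlier results of these data known. They are the 4 pyruvate dehydrogenase kinases PDK1 (ENSG00000152256), PDK2 (ENSG00000005882), PDK3 (ENSG00000067992) and PDK4 (ENSG00000004799), the subunits PDHA1 (ENSG00000131828), PDHB (ENSG00000168291), DLAT (ENSG00000150768) and PDHX (ENSG00000110435), and the phosphatases PDP1 (ENSG00000164951) and PDP2 (ENSG00000172840). All 10 were in the table and 9 passed the filter on low counts, among 15558 genes tested in all.

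RNA was sequenced from A2780 cells, an ovarian cancer line labelled as carcinoma and as wild type. There were 3 libraries in each of 3 groups, all collected at 96 h: 5.5 µM Pt-ttpy, 0.6 µM cisplatin and 0.5% DMSO. Pt-ttpy is, by the study's title, a platinum compound that binds G-quadruplexes, stacked structures of guanine-rich nucleic acid, and cisplatin is a DNA-crosslinking platinum drug. The labels place each drug at its own IC80, so the doses differ between the drugs. The labels call the replicates biological without saying whether they were separate cultures, so p-values measure only the spread between these libraries.

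Library totals were 32.4 to 35.1 M counts with Pt-ttpy, 31.3 to 39.5 M with cisplatin and 36.4 to 40.8 M with DMSO. DMSO replicate 2 and cisplatin replicate 2 stood apart: over 13383 genes, a gene's log2 CPM deviation from its mean over the libraries correlated with its GC content at a Spearman rho of 0.41 in cisplatin 2 and 0.51 in DMSO 2, against -0.34 to -0.16 in the other 7 libraries. Calls of named genes that changed without these 2 libraries are given both ways. Leaving both out raised the share of all genes called higher and lower to 15.8% and 17.4% for Pt-ttpy against DMSO, 13.9% and 16.4% for cisplatin against DMSO, and 2.37% and 2.83% for Pt-ttpy against cisplatin. Of 7 epithelial or ovarian tumour markers, 5 (KRT18, PAX8, WT1, MUC16 and CDH1) were under 1 CPM (counts per M counts of the library, on the TMM scale) in every library. EPCAM and KRT8 reached at most 1.14 and 1.78 CPM, both with cisplatin. The defining markers of the labelled carcinoma were thus largely missing. All 5 blood and all 4 endothelial markers were also under 1 CPM. The mesenchymal markers summed to 7396 to 7961 CPM with Pt-ttpy, 7494 to 10760 CPM with cisplatin and 5912 to 7012 CPM with DMSO. Most of this was VIM, at 4922 to 8964 CPM over the libraries, while COL1A1 had 7.92 to 14.3 CPM. COL3A1 had 805 to 849 CPM with Pt-ttpy, 778 to 1183 CPM with cisplatin and 472 to 488 CPM with DMSO. The part of these markers in the results below was not tested.

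Pyruvate dehydrogenase links glycolysis to the tricarboxylic acid cycle. The kinases phosphorylate its E1 alpha subunit and inactivate it, which leaves more pyruvate for lactate, and the phosphatases remove the phosphate and restore activity. PDK1 is a textbook target of the hypoxia-inducible factor HIF-1, and cells with less active complex are known to rely more on glycolysis. Messenger RNA levels say nothing of the phosphorylation itself, which was not measured here. In these bulk libraries, fewer cells with a transcript and less of it per cell cannot be told apart.

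The region around the start of the genes that changed most is shown first, since the drug is described as binding G-quadruplexes and PDK1 as a HIF-1 target. RefSeq promoter windows on GRCh38.p14, from 250 bases before to 50 bases after a transcript start, were matched by symbol for 9 members, with 13 windows. Each window was searched on both strands for ACGTG, the core of the hypoxia response element, and for a G-quadruplex motif of 4 runs of at least 3 G with loops of 1 to 7 bases. In the windows below, written 5′ to 3′ on the strand of the gene, capitals mark ACGTG or its reverse complement CACGT, and they merge where both overlap in CACGTG, which counts once on each strand. In GENCODE 29, PDK1 spans chr2:172555373-172608669 and PDK3 chrX:24465221-24541862, both on the plus strand, and PDHB spans chr3:58427630-58433857 on the minus strand. PDK1 and PDK3 are the members that rose with Pt-ttpy, and PDHB is a subunit gene that did not pass the test in any comparison.
PDK1, chr2:172555840-172556139, plus strand: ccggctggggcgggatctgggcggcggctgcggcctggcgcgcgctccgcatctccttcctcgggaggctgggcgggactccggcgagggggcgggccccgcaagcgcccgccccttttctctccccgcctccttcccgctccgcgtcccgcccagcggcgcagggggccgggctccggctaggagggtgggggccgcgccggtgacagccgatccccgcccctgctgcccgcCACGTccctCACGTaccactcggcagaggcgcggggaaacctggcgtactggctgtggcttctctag
PDK3, chrX:24465036-24465335, plus strand: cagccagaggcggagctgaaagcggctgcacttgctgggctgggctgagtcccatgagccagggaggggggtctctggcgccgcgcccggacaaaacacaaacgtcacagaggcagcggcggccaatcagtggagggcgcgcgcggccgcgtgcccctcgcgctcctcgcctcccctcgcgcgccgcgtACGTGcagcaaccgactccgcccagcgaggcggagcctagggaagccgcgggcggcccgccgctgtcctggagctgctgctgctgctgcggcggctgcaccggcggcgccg
PDHB, chr3:58433783-58434082, minus strand: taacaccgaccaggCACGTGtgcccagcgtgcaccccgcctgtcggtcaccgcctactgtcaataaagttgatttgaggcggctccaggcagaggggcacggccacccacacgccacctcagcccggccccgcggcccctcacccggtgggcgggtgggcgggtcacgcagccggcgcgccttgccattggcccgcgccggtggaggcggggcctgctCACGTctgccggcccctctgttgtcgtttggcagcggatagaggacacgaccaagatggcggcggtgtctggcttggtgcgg

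This PDK1 window held 2 matches to ACGTG and a G-quadruplex motif, the PDK3 window held 1 match to ACGTG and no G-quadruplex motif, and the PDHB window held 3 matches and a G-quadruplex motif. The other PDK1 window held neither. Over the 9 members without PDP1, 7 of 13 windows held ACGTG, 4 held it at least 2 times and 6 held a G-quadruplex motif. Among all 35116 windows of that length, 21.4% held ACGTG, 8.82% held it at least 2 times and 25.0% held the G-quadruplex motif. These matches describe the letters of the windows and show no binding.

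**Figure D1:**
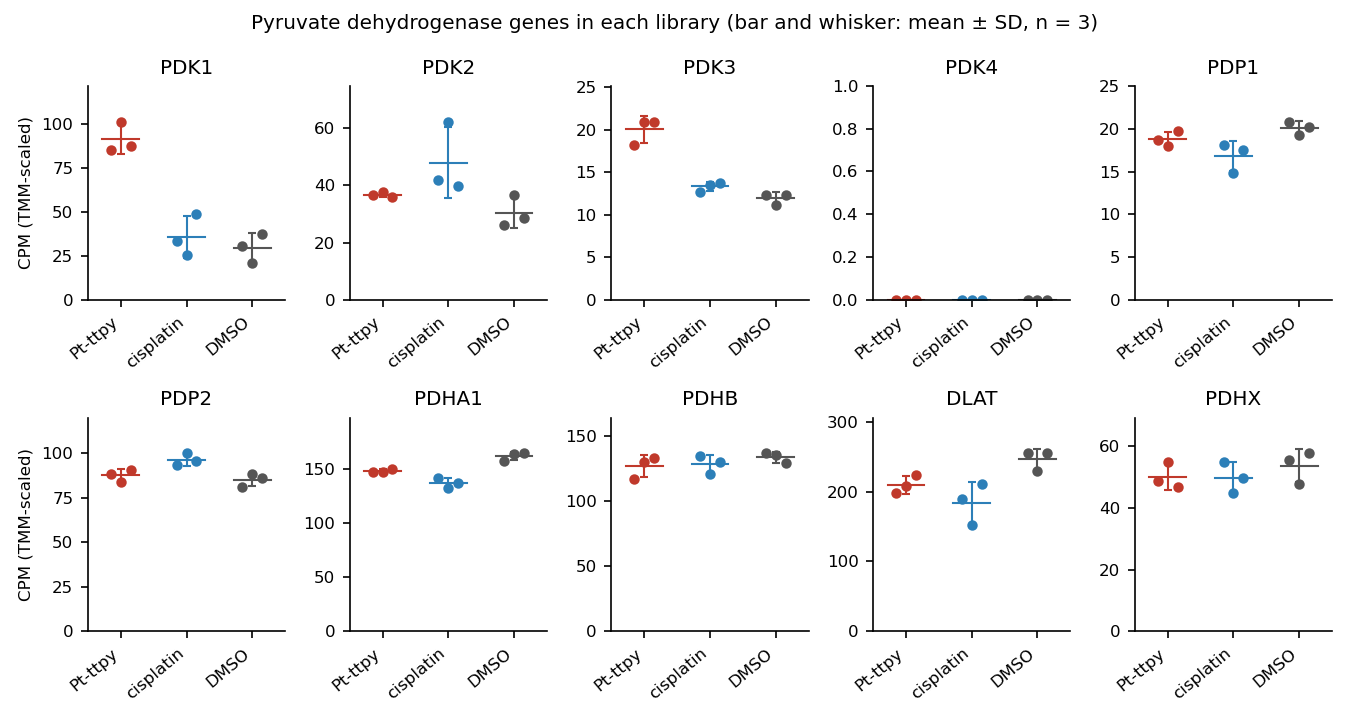
CPM, on the TMM scale, of the 10 genes in each library, with Pt-ttpy, cisplatin and DMSO from left to right, a point for each of the 3 libraries of a group and a bar and whisker for the mean ± SD. PDK1 was at 85.5 to 101.6 CPM with Pt-ttpy against 20.9 to 37.3 CPM with DMSO, while PDHB and PDHX overlapped between all 3 groups.

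With Pt-ttpy, the transcripts of PDK1 and PDK3 rose against DMSO, and those of the enzyme's own subunits and of the phosphatases did not pass the test. Of the 9 genes tested, 2 were called, both higher, where 12% of all genes were called and 5.59% were called higher and 6.45% lower. The median log2 change of the 9 genes was -0.08, against 0.03 over all genes tested.

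PDK1 had 85.5, 101.6 and 87.7 CPM with Pt-ttpy, 33.4, 25.3 and 48.8 CPM with cisplatin, and 30.8, 20.9 and 37.3 CPM with DMSO. Every Pt-ttpy library lay above every other library, and cisplatin overlapped DMSO, with the lowest value of each of these groups in replicate 2. Means were 91.6 ± 8.72, 35.8 ± 11.9 and 29.7 ± 8.25 CPM with Pt-ttpy, cisplatin and DMSO (SD, n = 3 each), from 730 to 3604 counts per library. The log2 change was 1.63 with Pt-ttpy against DMSO (SE 0.24, 95% interval 1.10 to 2.15, adjusted p = 0.00464 by edgeR's quasi-likelihood test). PDK1 was called in all 16 alternative settings of this comparison, at log2 changes of 1.43 to 1.83. With cisplatin the log2 change was 0.27 (95% interval -0.25 to 0.79, adjusted p = 0.449), and it turned to -0.02 without cisplatin replicate 3. PDK1 has exons of low GC content, at 39.8% against a median of 49.0% over genes, and the part of the GC trend in its low values in both replicate 2 libraries was not tested.

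PDK3, the kinase with a more restricted tissue range in the body, had 18.2, 20.9 and 21.0 CPM with Pt-ttpy, 12.7, 13.5 and 13.8 CPM with cisplatin, and 12.4, 11.2 and 12.4 CPM with DMSO. The groups did not overlap, and Pt-ttpy stood apart by the wider gap. PDK3 rose by a log2 change of 0.74 with Pt-ttpy against DMSO (SE 0.13, 95% interval 0.46 to 1.03, adjusted p = 0.00899 by edgeR's quasi-likelihood test). The call was kept in 15 of 16 alternatives and lost without Pt-ttpy replicate 2, at an adjusted p of 0.0573. With cisplatin its log2 change was 0.15 and did not pass the test (adjusted p = 0.429).

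PDK2, the most widely expressed kinase, was the member that rose with cisplatin. It had 36.6, 37.7 and 36.1 CPM with Pt-ttpy, 41.9, 62.4 and 39.8 CPM with cisplatin, and 26.0, 36.6 and 28.8 CPM with DMSO. Cisplatin lay above both other groups in every library, and replicate 2 was the highest of the cisplatin and of the DMSO group. The log2 change with cisplatin against DMSO was 0.66 (SE 0.18, 95% interval 0.27 to 1.05, adjusted p = 0.0241 by edgeR's quasi-likelihood test). The call was kept in 12 of 16 alternatives, among them the fit without both replicate 2 libraries. Without cisplatin replicate 2 alone the log2 change was 0.42 and no longer called (adjusted p = 0.0718). The call was also lost without DMSO 1 or DMSO 3 (0.0762 and 0.0767) and with the 6 libraries of the contrast (0.0709). PDK2 has the highest exon GC content of the members, 59.8%, and the part of the GC trend of both replicate 2 libraries in this result was not tested. With Pt-ttpy the log2 change against DMSO was 0.27 and did not pass (adjusted p = 0.332). It was 0.43, with an adjusted p of 0.00057, when cisplatin 2 and DMSO 2 were both left out. Of the exon bases of PDK2, 38.6% overlap SAMD14 on the other strand, and whether counting used strand is not given in the sources used here. SAMD14 itself had 19 to 118 counts per library, against 925 to 2634 for PDK2.

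PDK4, which fasting and fatty acids induce in muscle and liver, had 0 counts in all 9 libraries. A count of 0 allows up to 3 counts, or 0.0711 to 0.0966 CPM depending on the library, for counting error only.

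With cisplatin, 2 of the 9 genes were called against DMSO, where 20.5% of all genes were called. One was higher, PDK2, and 1 was lower, DLAT, where 10.7% of all genes were called higher and 9.78% lower. The median log2 change of the 9 was -0.06, against 0.01 over all genes tested.

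**Figure D2:**
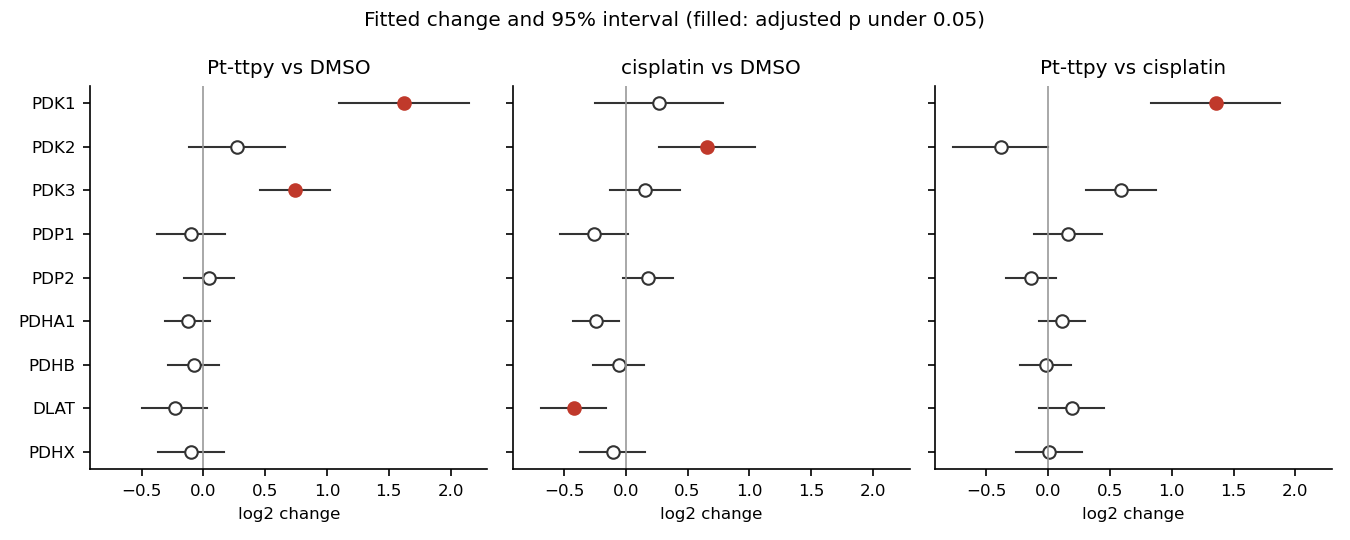
Fitted log2 changes of the 9 genes tested, with 95% intervals, for Pt-ttpy against DMSO, cisplatin against DMSO and Pt-ttpy against cisplatin; filled points passed an adjusted p under 0.05. PDK1 is farthest from 0 with Pt-ttpy, at 1.63 against DMSO and 1.36 against cisplatin, and DLAT and PDHA1 have values below 0 in both comparisons with DMSO.

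DLAT encodes the E2 subunit, the acetyltransferase around which the complex is built. It had 197.8, 207.9 and 223.7 CPM with Pt-ttpy, 189.5, 151.8 and 210.9 CPM with cisplatin, and 255.4, 229.4 and 255.0 CPM with DMSO. DMSO lay above both drug groups in every library, and the drug groups overlapped. DLAT fell with cisplatin against DMSO by 0.42 on the log2 scale (SE 0.12, 95% interval -0.69 to -0.16, adjusted p = 0.0300 by edgeR's quasi-likelihood test). This call was kept in 9 of 16 alternatives, among them the fit without both replicate 2 libraries. In the others the adjusted p was up to 0.0941. It was 0.0732 and 0.0858 without DMSO 1 or DMSO 3, 0.0558 without Pt-ttpy 2, and 0.0579 and 0.0672 without cisplatin 1 or cisplatin 2. With Pt-ttpy the log2 change was -0.23 and did not pass (95% interval -0.50 to 0.03, adjusted p = 0.219). It was called without both replicate 2 libraries, at -0.28 and an adjusted p of 0.000974. The lowest DLAT value of the cisplatin and of the DMSO group was again in replicate 2, and its exon GC content is 43.3%.

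PDHA1 encodes the E1 alpha subunit that the kinases phosphorylate. It had 147.5, 147.2 and 150.7 CPM with Pt-ttpy, 141.8, 133.0 and 137.2 CPM with cisplatin, and 157.8, 164.4 and 165.1 CPM with DMSO. The 3 groups did not overlap. No difference passed the test: the log2 change was -0.13 with Pt-ttpy (adjusted p = 0.336) and -0.24 with cisplatin (adjusted p = 0.0624), both against DMSO. The value with cisplatin was called in 3 of 16 alternatives, among them the fit without both replicate 2 libraries, at -0.21 with an adjusted p of 0.00823. MAP3K15 overlaps 21.3% of the exon bases of PDHA1 on the other strand and had 3.97 to 9.64 CPM. PDHA2, the intronless copy expressed in testis, had 0 counts in every library.

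PDHB encodes the E1 beta subunit and had 116.7 to 132.7 CPM with Pt-ttpy, 120.2 to 134.2 CPM with cisplatin and 128.8 to 136.6 CPM with DMSO. PDHX encodes the E3-binding protein, which tethers the last enzyme of the reaction, and had 46.8 to 54.8, 45.0 to 55.0 and 47.6 to 57.8 CPM in the Pt-ttpy, cisplatin and DMSO groups. Both genes overlapped between all groups. Their log2 changes against DMSO were between -0.11 and -0.06 with adjusted p of 0.568 to 0.697, values that do not show the levels to be equal.

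The phosphatases PDP1, which calcium stimulates, and PDP2, which is known to respond to insulin, did not pass the test in any comparison. PDP1 had 18.7, 18.0 and 19.7 CPM with Pt-ttpy, 18.2, 14.8 and 17.5 CPM with cisplatin, and 20.8, 19.3 and 20.3 CPM with DMSO. PDP2 had 88.5, 83.9 and 90.6 CPM with Pt-ttpy, 93.3, 100.0 and 95.8 CPM with cisplatin, and 80.9, 88.1 and 86.1 CPM with DMSO. Cisplatin lay below DMSO in every library for PDP1 and above it for PDP2, at log2 changes of -0.26 (adjusted p = 0.166) and 0.18 (adjusted p = 0.185). PDP2 was called with cisplatin in the fit without both replicate 2 libraries (adjusted p = 0.0404). With Pt-ttpy the log2 changes were -0.10 for PDP1 and 0.04 for PDP2.

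Counted by overlap alone, 4 of the 9 genes had non-overlapping Pt-ttpy and DMSO groups, 2 higher and 2 lower, where 40.9% of all genes did. For cisplatin and DMSO it was 6 of 9, with 3 in each direction, where 38% of all genes did. The first share is near that of all genes.

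The drugs were also set against each other, at doses that differ. With Pt-ttpy against cisplatin, PDK1 was the 1 member called of 9, where 0.514% of all genes were called and 0.0578%, or 9 genes, were called higher. PDK1 was higher by a log2 change of 1.36 (SE 0.24, 95% interval 0.83 to 1.88, adjusted p = 0.0301 by edgeR's quasi-likelihood test). The direction held in all 16 alternatives, at 1.15 to 1.64, but the call held in 9. It was lost without Pt-ttpy 1, 2 or 3 (adjusted p = 0.134, 0.15 and 0.136), without cisplatin 1 or 2 (0.142 and 0.0826), without both replicate 2 libraries (0.0507) and with no filter on low counts (0.0541). PDK3 was higher in every Pt-ttpy library, with a log2 change of 0.59 (95% interval 0.31 to 0.87), and did not pass the test (adjusted p = 0.0876). It was called in 3 alternatives, among them the fit without both replicate 2 libraries, at 0.60 with an adjusted p of 0.0053. PDK2 was lower in every Pt-ttpy library, at -0.38 with an adjusted p of 0.621. The groups did not overlap for 5 of the 9 genes, 3 higher and 2 lower, against 20.6% of all genes. The 3 comparisons share groups of libraries in pairs, so they are not independent of each other.

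Levels of the kinases were compared with each other per kilobase of merged exons. PDK1 had 6.16 ± 0.586, 2.41 ± 0.801 and 1.99 ± 0.554 CPM per kb with Pt-ttpy, cisplatin and DMSO (SD, n = 3 each). PDK2 had 6.71 ± 0.158, 8.76 ± 2.28 and 5.56 ± 1.00 CPM per kb, and PDK3 had 4.05 ± 0.317, 2.69 ± 0.116 and 2.42 ± 0.137 CPM per kb, in the same groups. With cisplatin and with DMSO, PDK2 stood above both other kinases by more than the spread. With Pt-ttpy, PDK1 and PDK2 lay within their spread of each other.

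PDK1 made up 35.7%, 38.0% and 35.3% of the summed kinase level per kilobase with Pt-ttpy, 18.0%, 10.8% and 24.6% with cisplatin, and 22.2%, 13.6% and 24.4% with DMSO. The Pt-ttpy libraries did not overlap the others. PDK1 and PDK2 have very different untranslated lengths, and the order of the kinases moved with the length used: per kilobase of coding length the share of PDK1 was 59.1%, 34.5% and 38.3% on average with Pt-ttpy, cisplatin and DMSO. That of PDK2 was then 26.7%, 51.5% and 44.6%, so PDK1 led with Pt-ttpy, and with DMSO the mean shares of PDK1 and PDK2 differed by less than the SD of either (8.90 and 9.27 percentage points). The order of the groups in the mean share stayed Pt-ttpy, DMSO, cisplatin with each of the 3 lengths used.

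**Figure D3:**
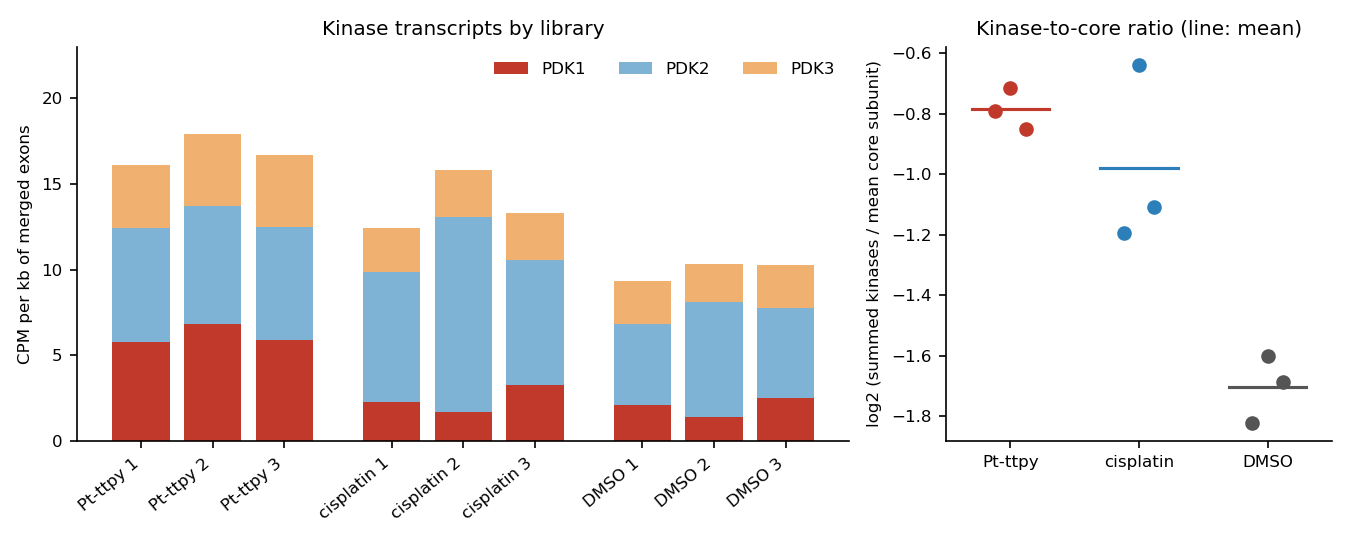
Left, stacked levels of PDK1, PDK2 and PDK3 in each library, in CPM per kb of merged exons; right, the log2 ratio of the summed kinase level to the mean level of the 4 subunit genes (core), with a point per library and a line for the mean. The summed kinases were at 16.1 to 17.9 CPM per kb with Pt-ttpy, 12.4 to 15.8 with cisplatin and 9.31 to 10.3 with DMSO.

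Summed over PDK1, PDK2 and PDK3, the kinase level was 16.9 ± 0.937, 13.9 ± 1.75 and 9.97 ± 0.571 CPM per kb with Pt-ttpy, cisplatin and DMSO. The mean of the 4 subunit genes PDHA1, PDHB, DLAT and PDHX was 29.2 ± 1.16, 27.3 ± 2.31 and 32.4 ± 0.951 CPM per kb in the same groups. The log2 ratio of kinases to subunits was -0.79, -0.72 and -0.85 with Pt-ttpy, -1.19, -0.64 and -1.11 with cisplatin, and -1.82, -1.60 and -1.69 with DMSO. Both drug groups lay above DMSO in every library and, per kilobase of merged exons, overlapped each other through cisplatin 2. Against the phosphatases, the log2 ratio was 0.21, 0.44 and 0.22 with Pt-ttpy, -0.21, 0.11 and -0.13 with cisplatin, and -0.52, -0.43 and -0.44 with DMSO. The sign of the mean ratio to the phosphatases with cisplatin turned with the length used: it was -0.075 per merged exons, 0.14 per longest transcript and 0.10 per coding length, while that with Pt-ttpy was 0.29, 0.37 and 0.77 and that with DMSO -0.47, -0.30 and -0.22. These ratios of transcripts carry no test, since they are built from the chosen genes. Of the difference in means from DMSO with Pt-ttpy, per kilobase of merged exons, PDK1 made up 4.16 CPM per kb, PDK3 1.63 and PDK2 1.16. The order of PDK3 and PDK2 turned with the length of the longest transcript. With cisplatin, PDK2 made up 3.20 CPM per kb, PDK1 0.415 and PDK3 0.274.

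The genes that feed pyruvate into the complex or divert it were taken from a list of 10. Each list used here was chosen with earlier results of these data known, so its counts are a description. With Pt-ttpy, 1 rose and 1 fell against DMSO, where 5.59% of all genes were called higher and 6.45% lower. With cisplatin 1 rose and 4 fell, where 10.7% of all genes were called higher and 9.78% lower; the same background holds for each list below. Without both replicate 2 libraries, 1 was higher and 3 lower with Pt-ttpy, and 0 higher and 6 lower with cisplatin. SLC16A3, the lactate exporter MCT4, had 90.0, 110.1 and 100.1 CPM with Pt-ttpy, 61.2, 78.5 and 91.7 CPM with cisplatin, and 41.5, 45.2 and 47.8 CPM with DMSO. Both drug groups lay above DMSO. Its log2 change was 1.16 with Pt-ttpy (adjusted p = 0.00252) and 0.78 with cisplatin (adjusted p = 0.00522), and the second was lost without both replicate 2 libraries (0.07).

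MPC1 and MPC2 form the carrier that brings pyruvate into mitochondria. MPC1 had 19.2, 19.1 and 18.9 CPM with Pt-ttpy, 18.7, 14.5 and 16.5 CPM with cisplatin, and 27.0, 26.5 and 25.2 CPM with DMSO. It lay below DMSO in every library of both drugs, and fell by 0.46 on the log2 scale with Pt-ttpy (adjusted p = 0.0362) and by 0.66 with cisplatin (adjusted p = 0.00595). The call with Pt-ttpy was lost in 9 of 16 alternatives, with adjusted p up to 0.131: without any 1 Pt-ttpy or DMSO library, without cisplatin 3, and with 2 other scalings. MPC2 had 57.6, 53.7 and 50.4 CPM with Pt-ttpy, 46.8, 43.4 and 47.6 CPM with cisplatin, and 67.0, 73.3 and 63.1 CPM with DMSO. It fell by 0.56 on the log2 scale with cisplatin (adjusted p = 0.00553), and its log2 change of -0.33 with Pt-ttpy did not pass (adjusted p = 0.0618). That value was called without both replicate 2 libraries (-0.27, adjusted p = 0.0066), with DESeq2 (0.0282) and without cisplatin 2 (0.0361).

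LDHA, the lactate dehydrogenase subunit that makes lactate from pyruvate, had 1613, 1954 and 1770 CPM with Pt-ttpy, 1099, 779 and 1259 CPM with cisplatin, and 1690, 1686 and 1644 CPM with DMSO. Cisplatin lay below both other groups. It fell by 0.68 on the log2 scale with cisplatin against DMSO (adjusted p = 0.0102), its log2 change was 0.09 with Pt-ttpy (adjusted p = 0.733), and Pt-ttpy was higher than cisplatin by 0.77 (adjusted p = 0.0476). That last call was lost in 8 of 16 alternatives, at adjusted p of 0.0534 to 0.272, 7 of which left out 1 library: any of Pt-ttpy or DMSO, or cisplatin 1. PKM, the pyruvate kinase gene, fell with cisplatin by 0.44 on the log2 scale (adjusted p = 0.0367). This was lost in 9 of 16 alternatives, at adjusted p up to 0.106, among them without DMSO 2 (log2 change -0.27), without cisplatin 1 or 2, and without any 1 Pt-ttpy library.

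Of 8 tested genes for the E3 subunit, the cofactors and the regulatory subunit of the phosphatase, 1 fell with each drug against DMSO, and with Pt-ttpy against cisplatin edgeR called 0, with 0 at an unadjusted p under 0.05. The call with Pt-ttpy was lost without any 1 Pt-ttpy library, and 2 fell with each drug without both replicate 2 libraries. DLD, the E3 subunit shared with related complexes, had 146.9, 142.9 and 149.9 CPM with Pt-ttpy, 140.1, 111.7 and 151.7 CPM with cisplatin, and 171.5, 106.3 and 154.6 CPM with DMSO. Its groups overlapped, with the low values in both replicate 2 libraries, and it did not pass with either drug (adjusted p = 0.939 with Pt-ttpy and 0.701 with cisplatin). PDPR, the regulatory subunit, averaged 169 ± 4.81, 171 ± 7.63 and 177 ± 13.4 CPM with Pt-ttpy, cisplatin and DMSO (SD, n = 3 each). It has near-identical copies in the genome, so its counts are uncertain.

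The sister complexes share the E3 subunit and the chemistry of pyruvate dehydrogenase. Of 9 genes tested, 2 rose with each drug, BCKDHB and DHTKD1. BCKDHB, of the branched-chain complex, had log2 changes of 0.62 with Pt-ttpy (adjusted p = 0.0123) and 0.68 with cisplatin (adjusted p = 0.00413). DHTKD1, of the 2-oxoadipate complex, had log2 changes of 0.57 (adjusted p = 0.0318) and 0.64 (adjusted p = 0.0138) with Pt-ttpy and cisplatin. With Pt-ttpy, the call of BCKDHB was lost without Pt-ttpy 2 (0.0678), and that of DHTKD1 without any 1 Pt-ttpy or DMSO library. Without both replicate 2 libraries, 4 were higher and 1 lower with Pt-ttpy, and 4 higher and 2 lower with cisplatin. With Pt-ttpy against cisplatin, edgeR called 0 of them and 1 had an unadjusted p under 0.05.

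Of 10 tested regulators described for PDK genes, 1 rose with Pt-ttpy, and 3 rose and 1 fell with cisplatin. FOXO3, described as an activator of PDK4, rose with Pt-ttpy by 0.69 (adjusted p = 0.0118, and 0.0665 without Pt-ttpy 2) and with cisplatin by 0.63 (adjusted p = 0.00853), while PDK4 stayed at 0 counts. With cisplatin, FOXO1 rose by 0.59 (adjusted p = 0.0281) and ESRRA fell by 0.42 (adjusted p = 0.0266). Without 1 library, FOXO1 was lost without DMSO 2, DMSO 3 or cisplatin 2 (up to 0.0837), and also without both replicate 2 libraries (log2 change 0.38, adjusted p = 0.0768), and ESRRA without Pt-ttpy 2, cisplatin 1 or cisplatin 2 (up to 0.0744). Without both replicate 2 libraries, 3 regulators were higher and 2 lower with Pt-ttpy, and 2 higher and 1 lower with cisplatin. With Pt-ttpy against cisplatin, edgeR called 0 regulators and 1 had an unadjusted p under 0.05, and 2 were called higher without both replicate 2 libraries.

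**Figure D4:**
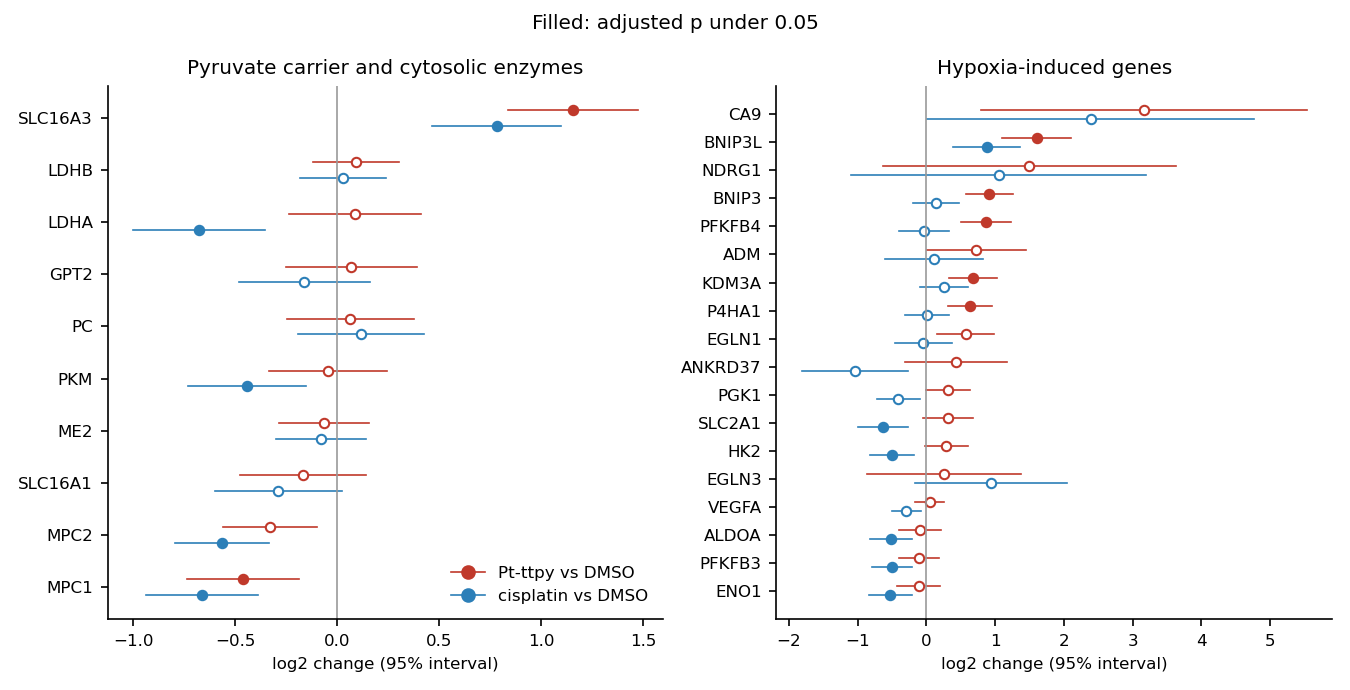
Fitted log2 changes with 95% intervals for Pt-ttpy (red) and cisplatin (blue) against DMSO, for the pyruvate carrier and cytosolic genes on the left and the hypoxia-induced genes on the right; filled points passed an adjusted p under 0.05. Among the 18 hypoxia-induced genes, 5 rose with Pt-ttpy and 0 fell, and 1 rose and 5 fell with cisplatin.

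PDK1 was also read beside 18 genes known to be induced in hypoxia. This list, like the others, was chosen with earlier results of these data known. Its counts beside the shares of all genes are a description, not a test of the set. With Pt-ttpy 5 rose and 0 fell, where 5.59% of all genes were called higher, and the median log2 change of the list was 0.50 against 0.03 over all genes. With cisplatin 1 rose and 5 fell, where 10.7% of all genes were called higher and 9.78% lower, and the median was -0.04 against 0.01. Without both replicate 2 libraries, 8 were higher and 0 lower with Pt-ttpy, and 2 higher and 6 lower with cisplatin. With 1 library left out, 1 to 7 were called with Pt-ttpy, the lowest count without Pt-ttpy 2, and 2 to 6 with cisplatin, the lowest count without cisplatin 2. The 5 were BNIP3L, BNIP3, PFKFB4, P4HA1 and KDM3A, the last outside the rule for naming genes and named after its values were seen. BNIP3L, a mitophagy receptor, had 154.2, 187.9 and 151.3 CPM with Pt-ttpy, 97.1, 78.9 and 121.8 CPM with cisplatin, and 66.7, 34.3 and 61.4 CPM with DMSO, with no overlap between groups. Its log2 change was 1.60 with Pt-ttpy (adjusted p = 0.0045) and 0.88 with cisplatin (adjusted p = 0.0203, lost in 2 of 16 alternatives, of which 1 left out cisplatin 3). BNIP3, its paralog, rose by 0.91 with Pt-ttpy (adjusted p = 0.00835), and PFKFB4, an enzyme that sets the level of fructose 2,6-bisphosphate, by 0.87 (adjusted p = 0.0123). Without Pt-ttpy 2 these adjusted p were 0.0511 and 0.0667. P4HA1, a collagen prolyl hydroxylase, rose by 0.63 (adjusted p = 0.0207) and was lost without any 1 Pt-ttpy library, as was KDM3A.

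The glucose transporter SLC2A1 fell with cisplatin by 0.63 (adjusted p = 0.0229), as did PFKFB3 by 0.50 (adjusted p = 0.0230) and the aldolase gene ALDOA by 0.52 (adjusted p = 0.0235). SLC2A1 had 141.0, 168.8 and 140.0 CPM with Pt-ttpy, 78.6, 56.3 and 98.7 CPM with cisplatin, and 116.7, 121.5 and 123.4 CPM with DMSO. Cisplatin was the low group and Pt-ttpy the high one, with no overlap. With Pt-ttpy against DMSO, SLC2A1 did not pass the test (log2 change 0.31, adjusted p = 0.231). Without 1 library, SLC2A1 was lost without DMSO 3 or cisplatin 1, PFKFB3 without DMSO 3 or cisplatin 2, and ALDOA without DMSO 2, cisplatin 1 or cisplatin 2, at adjusted p up to 0.0802. SLC2A1 was also lost without both replicate 2 libraries (log2 change -0.43, adjusted p = 0.0532). Between the drugs, 3 of the 18 genes were higher with Pt-ttpy and 0 lower, where 0.0578% of all genes were called higher. They were SLC2A1 (log2 change 0.95, adjusted p = 0.0301), PFKFB4 (0.91, adjusted p = 0.0347) and the hexokinase gene HK2 (0.79, adjusted p = 0.0367). Each was lost without any 1 Pt-ttpy library, without cisplatin 1 and without DMSO 3, at adjusted p up to 0.238. HK2 was also lost without DMSO 1, and PFKFB4 without DMSO 1, without cisplatin 2 and without both replicate 2 libraries (0.118). These calls held in 10, 6 and 9 of 16 alternatives for SLC2A1, PFKFB4 and HK2. Without both replicate 2 libraries, 9 of the 18 genes were higher with Pt-ttpy than with cisplatin and 0 lower. In that fit 2.37% of all genes were called higher. With 1 library left out, 0 to 5 of the 18 were called between the drugs. Against DMSO, HK2 did not pass with Pt-ttpy (log2 change 0.29, adjusted p = 0.204). It fell with cisplatin by 0.50 (adjusted p = 0.0322), a call kept in 8 of 16 alternatives.

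Over the 9 libraries, the genes whose log2 CPM followed PDK1 most closely among 10633 genes were BNIP3 (Pearson r = 0.99), PLOD2 (0.975), RIMKLA (0.971), AGTPBP1 (0.965) and STOX2 (0.960). BNIP3 averaged 169, 98.6 and 89.6 CPM and PLOD2, a collagen lysyl hydroxylase, averaged 155, 92.2 and 77.3 CPM with Pt-ttpy, cisplatin and DMSO. RIMKLA, an enzyme that joins N-acetylaspartate and glutamate, averaged 51.0, 15.9 and 17.1 CPM in the same groups. The correlations describe these libraries, which share the group differences, depth and GC trend with PDK1.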

How the data were processed

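Messenger RNA libraries were made from 1.3 µg of total RNA, per the labels' protocols. The authors deposited 1 table of raw counts per gene for the 9 libraries, with no further scaling in the values, and the build was GRCh38, per the submitters' processing notes. How reads were aligned and counted, and whether by strand, is not given in the sources used here. The label "Cispt" was read as cisplatin, and groups were taken from the sample titles and treatments.

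Genes with low counts were removed by filterByExpr (minimum count 10), libraries were scaled by TMM, and changes came from the robust quasi-likelihood model of edgeR 4.0.16 in R 4.3.3, with 1 mean per group over the 9 libraries. P-values come from its quasi-likelihood F test, two-sided, and are adjusted over all 15558 genes by the Benjamini-Hochberg method unless called unadjusted; calls are adjusted p under 0.05. The prior count of the log2 changes was 0.125. The edgeR fit of Pt-ttpy against DMSO was tested on simulated counts with planted changes. CPM values use the same factors, so group comparisons rest on the scaling; levels per kilobase use merged exons of GENCODE 29. Promoter windows are RefSeq sequences.

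In total 16 alternatives per comparison were run: DESeq2 1.42.0, upper-quartile factors, library totals, no filter, the 6 libraries of a contrast, a replicate block, 7 libraries without DMSO 2 and cisplatin 2, and each library left out. The coding length was added after the data were seen. The members and the 5 gene lists were chosen with earlier results of these data known. Genes named are the members, DLD, PDPR, MPC1 and MPC2, up to 4 called genes per list and comparison by adjusted p, and the 5 genes most correlated with PDK1 at a mean of at least 5 CPM. Some genes that this rule would name are not reported here.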

Additional observations from a re-analysis of the deposited data

How the results depend on the processing

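With 1 library left out, all genes called ranged from 185 (without Pt-ttpy 2) to 3004 (without cisplatin 2) for Pt-ttpy against DMSO, 2012 to 3100 for cisplatin against DMSO and 18 to 155 for Pt-ttpy against cisplatin; the members called ranged from 1 to 2, 0 to 3 and 0 to 2. Without both replicate 2 libraries, Pt-ttpy against DMSO had 5189 calls and 4 members, cisplatin against DMSO 4 members, and Pt-ttpy against cisplatin 813 calls. DESeq2 called 2834 genes for Pt-ttpy against DMSO, and 253 genes and 2 members for Pt-ttpy against cisplatin. With the 6 libraries of the contrast, cisplatin against DMSO had 1313 calls and 0 members (main: 3190 and 2), and with library totals 1 member. No filter left 0 members for Pt-ttpy against cisplatin. Of the calls with Pt-ttpy against DMSO, 870 were higher and 1004 lower, but 1050 and 666 with upper-quartile factors and 1005 and 773 with library totals. With cisplatin these counts were 1669 and 1521, 1940 and 913, and 1995 and 943. The median log2 change of all genes was 0.0983 with Pt-ttpy under upper-quartile factors and 0.102 with cisplatin under library totals.

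Same-numbered libraries correlated at -0.039 to 0.221 in their deviations from group means, against -0.145 to 0.066 for libraries of different numbers. Between DMSO and cisplatin, the same-numbered values were 0.1, 0.221 and 0.082, all above the others, at -0.145 to 0.065. Whether the numbers pair the libraries was not tested. The replicate block called 2539, 3712 and 140 genes in the 3 comparisons and made the same member calls. Per kilobase of coding length the kinase-to-subunit log2 ratio was 0.27, -0.22 and -0.88 with Pt-ttpy, cisplatin and DMSO, and the PDK1 share 59.1%, 34.5% and 38.3%. The drug groups then did not overlap in the kinase-to-subunit ratio, at 0.19 to 0.37 with Pt-ttpy and -0.42 to -0.0064 with cisplatin. With the longest transcript, the ratio was -0.68 with Pt-ttpy, -0.74 with cisplatin and -1.50 with DMSO, and the PDK1 share with Pt-ttpy 30.1%.

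Values that turned sign passed the test in no setting. For Pt-ttpy against DMSO, DLD was -0.15 without both replicate 2 libraries (-0.15 to 0.17 with 1 library left out), and PDPR 0.0035, 0.0019 and 0.0030 without both replicate 2 libraries, with library totals and with upper-quartile factors (-0.097 to 0.0031). For cisplatin against DMSO, PDPR was 0.042, 0.038 and 0.029 in the same settings (-0.090 to 0.015), PDHB 0.029 and 0.021 with library totals and upper-quartile factors, DLD -0.27 to 0.042 and PDK1 -0.019 to 0.47 with 1 library left out. For Pt-ttpy against cisplatin, PDHX was -0.063 without both replicate 2 libraries, -0.0054 with DESeq2, -0.014 with library totals and -0.0046 with upper-quartile factors (-0.063 to 0.083), PDHB -0.064 to 0.036 and PDPR -0.037 to 0.025. The causes were not tested. Depth of 31.3 to 40.8 M counts limits PDK4, with 0 counts, and SAMD14; with 3 libraries a group, small changes of subunit genes may go undetected.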

Other observations

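The 9 genes called higher with Pt-ttpy than with cisplatin were ALDOC, SLC1A1, SLC2A1, REEP1, PDK1, PFKFB4, HK2, RIMKLA and LDHA, and those outside the lists were named after their values were seen. ALDOC, a glycolytic aldolase, had a log2 change of 0.86 (adjusted p = 0.0213), SLC1A1, a glutamate transporter, 0.90 (0.0241), REEP1 0.89 (0.0301) and RIMKLA 1.68 (0.0419), all by edgeR's quasi-likelihood test. The number of genes called higher was 0 to 33 with 1 library left out, so the set depends on single libraries.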
